A study of Mus musculus with 8 samples.

Results

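The genes described here are the 8 genes of MHC class II presentation that the rule named, H2-Aa, H2-Ab1, H2-Eb1, Cd74, Ciita, H2-DMa, H2-DMb1 and H2-Ob. They were found by their symbols, and all 8 of 8 were present among 20275 gene symbols of the series. Single cells from mouse colon tumors were sorted 1 per well into 384-well plates and sequenced with SORT-seq, a CEL-Seq2 method that counts the 3′ ends of transcripts with unique molecular identifiers. There were 8 plates, each from 1 mouse, with 4 FibCtrl and 4 FibΔZeb1 plates. The tumors grew from tumor organoids placed into the cecum wall. All mice received a tamoxifen diet. The labels give the FibΔZeb1 mice as positive and the FibCtrl mice as negative for a Col1a1Cre-ERT2 transgene, whereas the methods of the study name a Col1a2-CreERT2 allele on Zeb1 fl/fl. Deletion was therefore limited to cells in which that promoter is active, mainly fibroblasts, while tumor and immune cells kept Zeb1 in both genotypes. EPCAM+, CD45+ and triple-negative cells shared each plate, and the gate of a well was not used here. The methods of the study keep the Col1a2-CreERT2 line on an FvB background. Ages of the mice were not given.

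MHC class II molecules show peptides from endocytosed proteins to CD4+ T cells. H2-Aa and H2-Ab1 encode the chains of the I-A molecule, and H2-Eb1 encodes the beta chain of I-E. Cd74, the invariant chain, guides new class II molecules to endosomes and blocks their groove until H2-DM, made of H2-DMa and an H2-DMb chain, exchanges the remaining fragment for peptide. H2-Ob is the beta chain of H2-O, which inhibits H2-DM, and Ciita is the coactivator that switches the whole set on. Dendritic cells, B cells and many macrophages express most of these genes, and interferon gamma can induce class II genes in epithelial, mesothelial and fibroblastic cells. In tumors, fibroblasts with class II have been described as antigen-presenting fibroblasts.

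The promoters are shown because class II genes share an arrangement of motifs that Ciita-bound complexes recognise, of which the Y box, bound by NF-Y, has the core CCAAT. RefSeq sequences of the build GRCm38.p6 were available for 5 of the 8 members and are shown for the 4 genes with a Y box core near the start, 5′ to 3′ on the gene's own strand, with the reverse form ATTGG of the core in capitals. The stretches lie on chromosome 17, at chr17:34287847-34287916 (minus strand) for H2-Aa and, on the plus strand, at chr17:34305763-34305832 for H2-Eb1, chr17:34238803-34238872 for H2-Ob and chr17:34153085-34153154 for H2-DMb1.
H2-Aa: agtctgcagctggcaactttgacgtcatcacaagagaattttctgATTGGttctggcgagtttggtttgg
H2-Eb1: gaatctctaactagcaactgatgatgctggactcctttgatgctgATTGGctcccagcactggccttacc
H2-Ob: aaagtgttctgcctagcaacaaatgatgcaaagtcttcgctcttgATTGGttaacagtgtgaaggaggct
H2-DMb1: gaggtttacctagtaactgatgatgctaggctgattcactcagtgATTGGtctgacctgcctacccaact
The core began 48 bases before the annotated start in H2-Aa, 59 in H2-Eb1, 57 in H2-Ob and 61 in H2-DMb1. CCAAT or ATTGG occurred in 37.4% of all 32851 promoter windows of 300 bases. The string searched for an X box, ACAGATG or CATCTGT, occurred in 5.01% of windows. Among these 4 genes only the H2-Aa window held it, 232 bases before the start and outside the stretch shown. Only this exact string was searched, so a window without it can hold an X box of other letters. The match in H2-Aa need not be its X box. A match is a description of letters and not of a bound site. The sequences are those of the reference build and were not read from the FvB mice.

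Of 3072 wells, 1831 passed the filters on transcripts and mitochondrial share, with 98 wells on the poorest plate. The plates held between 981881 and 5905188 cell transcripts. Classes were rebuilt by clustering without any class II gene, and 144 B cell, 171 macrophage, 32 dendritic, 256 neutrophil, 143 T cell, 420 epithelial, 144 fibroblast and 38 mesothelial wells entered the comparisons below. From the fibroblast clusters, 35 wells with at least 2 transcripts of Ptprc or of Epcam had been left out. Of these, 21 were on FibCtrl replicate 1 and 9 on FibΔZeb1 replicate 1. The other classes had no such limit, which bears on comparisons of fibroblast with epithelial, mesothelial and other wells. At least 7 markers of its own list were detected in 10% or more of the wells of each of these classes. Dendritic wells reached 5 on only 2 plates, and no cluster carried monocyte markers as its best list. In fibroblast wells Zeb1, the deleted gene, lay at 93.2 and 81.7 CPM (counts scaled to 1e6 cell transcripts) on FibCtrl replicates 1 and 4 and at 43.6, 36.9 and 28.3 on FibΔZeb1 replicates 1, 3 and 4, the plates with at least 10 such wells, although 3′ tags need not cover the deleted part. FibCtrl replicates 2 and 3 had no Zeb1 transcript in 3 and 9 fibroblast wells. By the run identifiers of the deposited tables, replicates 1 and 2 of both genotypes shared a flow cell, as did replicates 3 and 4.

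Class II transcripts were concentrated in dendritic, B cell and macrophage wells. Levels are given in CPM over all wells of a class on a plate, and since each transcript is counted once at its 3′ end they are not divided by length. Cd74 had a pooled level of 22841 CPM in dendritic, 12708 in B cell and 11426 in macrophage wells, against 438 in T cell, 291 in neutrophil, 119 in epithelial and 106 in fibroblast wells. H2-Aa, the I-A alpha chain, followed the same order at the top, with 23984, 11133 and 9423 CPM, and had 327 in epithelial and 376 in fibroblast wells. H2-Ab1, its partner, had 14493, 5133 and 5561 CPM in these 3 classes and 137 in epithelial wells. The mean over plates with at least 5 wells gave Cd74 in macrophage wells 4.78 ± 0.93 log2 units (SD, n = 7 plates) above T cell wells, higher on 7 of 7 plates.

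**Figure D1:**
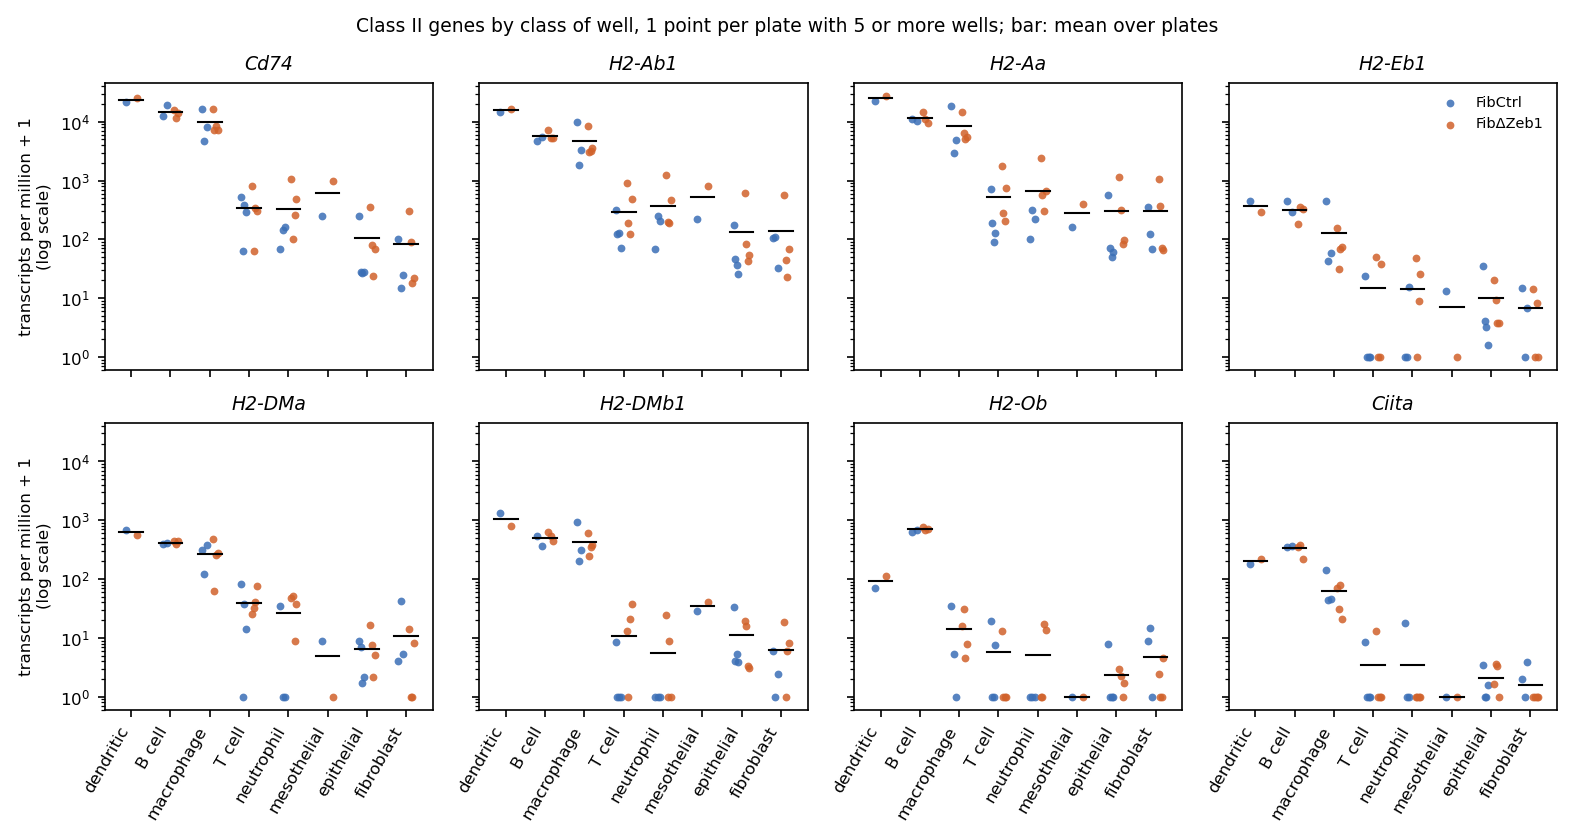
Each panel shows 1 class II gene, with classes of wells on the x axis and levels in CPM plus 1 on a log y axis. Every point is 1 plate with at least 5 wells of the class, blue for FibCtrl and orange for FibΔZeb1, and the bar is the mean over plates. The means of dendritic, B cell and macrophage wells lie above those of the other classes. Single macrophage plates reach down into the range of other classes for H2-Ob, H2-Eb1 and H2-DMa, and come near it for Ciita. For H2-Ob, B cell wells stand highest.

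Neighbouring classes in this order were compared within plates by a two-sided exact sign-flip permutation test of log2(CPM + 10), with 38 tests over the 8 members. None passed after Benjamini-Hochberg adjustment, and the lowest adjusted p was 0.0990, for differences that held on every shared plate. With 7 shared plates the smallest unadjusted p the test allows is 0.0156, reached for Cd74 between macrophage and T cell wells. A difference between B cell and macrophage wells was not shown over their 5 shared plates, for which the smallest p the test allows is 0.0625. It was 0.65 ± 0.97 for Cd74 (exact test, adjusted p = 0.528, higher on 3 plates) and 0.55 ± 0.96 for H2-Aa (exact p = 0.188, adjusted p = 0.445). Dendritic wells exceeded B cell wells by 0.73 ± 0.05 for Cd74 and 1.43 ± 0.30 for H2-Ab1, but this rests on 2 plates and could not be tested. For H2-Aa, fibroblast and epithelial wells differed by 0.01 ± 0.60 (n = 7 plates, exact p = 0.953).

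The peptide loading genes and the coactivator divided the presenting classes differently. H2-Ob was the member that set B cell wells apart, with 653 CPM against 90.2 in dendritic and 10.3 in macrophage wells. By plate, H2-Ob in B cell wells was 638 and 695 CPM on FibCtrl replicates 1 and 3 and 757, 686 and 706 on FibΔZeb1 replicates 1, 2 and 4. These 5 plates were close together, and on both plates with dendritic wells H2-Ob was higher in B cell than in dendritic wells, by 2.84 ± 0.27 log2 units. Ciita was likewise ordered with B cells first, at 344 CPM, then dendritic wells at 208 and macrophage wells at 63.2. Ciita exceeded its T cell level in macrophage wells on 7 of 7 plates, by 2.36 ± 0.61 log2 units (exact p = 0.0156, adjusted p = 0.0990). H2-DMa had 398, 557 and 345 CPM in B cell, dendritic and macrophage wells, and H2-DMb1 had 511, 836 and 460. H2-DMb1 stands beside a near-identical copy, H2-DMb2, with which reads could be exchanged, so its level is uncertain. H2-Eb1, the I-E beta chain, had 374, 281 and 121 CPM.

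Among the other genes of the pathway, H2-Oa, the alpha chain that pairs with H2-Ob, was found at 244 CPM in B cell and 140 in dendritic wells and at 0.574 in macrophage wells. H2-Eb2 was almost limited to B cell wells, with 130 CPM against 5.01 in dendritic wells and no transcript in macrophage wells. H2-Ea-ps, the I-E alpha gene that the reference annotates as a polymorphic pseudogene, was detected at 265, 336 and 130 CPM in B cell, dendritic and macrophage wells. These counts do not show whether an I-E alpha chain is made. Reads were mapped to the reference build, and how the FvB background bears on the levels of class II genes was not tested. Of 18 genes of the class II pathway list present in the table, Ctss, the cathepsin that trims the invariant chain, was highest in macrophage (3748 CPM) and dendritic wells (1945 CPM), and Cd83, which stabilises class II at the surface, was highest in B cell wells (1229 CPM). In epithelial, fibroblast and mesothelial wells the highest of this list was the protease gene Ctsl, at 229, 576 and 640 CPM. The Nfya, Nfyb and Nfyc genes of NF-Y lay between 26.4 and 80.2 CPM in B cell, dendritic and macrophage wells and between 25.5 and 70.1 in epithelial wells.

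The class I genes, by contrast, were found in every class. H2-D1, a class I heavy chain, had 4283 CPM in B cell, 7125 in T cell, 1771 in epithelial and 1314 in fibroblast wells, and B2m had 3043, 6654, 1276 and 1914. From the interferon gamma list, Jak1, a kinase of the interferon receptors, had 696 CPM in T cell wells, 127 in epithelial and 335 in fibroblast wells. Among costimulatory genes, Cd86 had 126, 173 and 163 CPM in B cell, dendritic and macrophage wells and 0.728 in epithelial wells, while Cd274, encoding PD-L1, was highest in neutrophil wells at 429 CPM. Cd40, a receptor for T cell help, had 98.3 CPM in epithelial wells and 116 in B cell wells.

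The genes whose levels over the 11 named classes were most like the mean of the 8 members were H2-Ea-ps (r = 0.99), H2-DMb2, Ly86 and Ifi30 (0.97 each), Gm6377 (0.95), Cd86 (0.94), Ero1lb (0.93), Plekho1 and Cd83 (0.92 each) and Irf5 (0.91), out of 4769 genes with at least 100 CPM in a class. The classes share plates and differ in depth, so these correlations are descriptions. Ifi30, a lysosomal thiol reductase, had 717, 1614 and 774 CPM in B cell, dendritic and macrophage wells. Among the members themselves, H2-Ob departed most from the mean of the set (r = 0.84) and the other 7 had r of 0.95 to 0.99. The annotated gene bodies lie on chromosome 17 at 34257689-34269419 for H2-Ab1, 34282744-34287823 for H2-Aa and 34305867-34316674 for H2-Eb1 (GENCODE M21, GRCm38). H2-DMa lies there at 34119541-34139101, H2-DMb1 at 34153072-34160230 and H2-Ob at 34238903-34254414, while Ciita lies on chromosome 16 at 10480059-10528418 and Cd74 on chromosome 18 at 60803848-60812652.

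Co-detection within single wells gave the same division. Each well was thinned to 1000 transcripts, which left out 3 B cell, 8 macrophage, 5 epithelial and 23 neutrophil wells among others. At least 3 of the 8 members were found in 137 of 141 B cell wells (97.2%, exact Clopper-Pearson 95% interval 92.9 to 99.2), in 26 of 32 dendritic wells (81.2%, 63.6 to 92.8) and in 90 of 163 macrophage wells (55.2%, 47.2 to 63). Mouse T cells normally lack class II and serve here as the background, with 11 of 141 wells (7.80%, 3.96 to 13.5). Neutrophil wells had 6.87%, epithelial wells 3.37% and fibroblast wells 3.57%, so that these pooled shares lay below the T cell share. This did not hold on each plate, since on FibΔZeb1 replicate 1 neutrophil wells had 36.8% and fibroblast wells 22.7% beside 22.2% in T cell wells. The part of background transcripts in these shares was not tested. Without thinning the shares were 100% in B cell, 96.9% in dendritic, 80.1% in macrophage, 39.2% in T cell, 55.7% in epithelial and 50.7% in fibroblast wells, with median depths of 2746, 13065, 8558, 3282, 24574 and 18659 transcripts. The intervals cover counting error only.

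By genotype, the share of macrophage wells with at least 3 members was 51.9 ± 34.8% (SD, n = 3 plates) in FibCtrl and 53.2 ± 19.3% (n = 4) in FibΔZeb1. The plates ran from 21.9% to 90% in FibCtrl and from 36.8% to 78.8% in FibΔZeb1, so the genotypes overlapped widely. B cell wells had 85.7% and 100% on the 2 FibCtrl plates and 96.4% to 100% on the 3 FibΔZeb1 plates. Epithelial wells had 1.89 ± 3.77% in FibCtrl and 5.03 ± 7.52% in FibΔZeb1 (n = 4 each). In fibroblast wells the share was 22.7% on FibΔZeb1 replicate 1. It was 0 of 78 wells on 3 FibCtrl plates, which allows a share of up to 3.85%, and 0 of 37 wells on the other FibΔZeb1 plates, which allows up to 8.11%. Each limit is 3 wells over the wells pooled. It covers counting error in these wells only and does not bound the share in another mouse. Neutrophil wells had 3.61 ± 3.13% in FibCtrl (n = 3) and 12 ± 17.1% in FibΔZeb1 (n = 4), and T cell wells 2.78 ± 5.56% and 10.6 ± 12.2% (n = 4 each). These shares were not tested between genotypes.

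**Figure D2:**
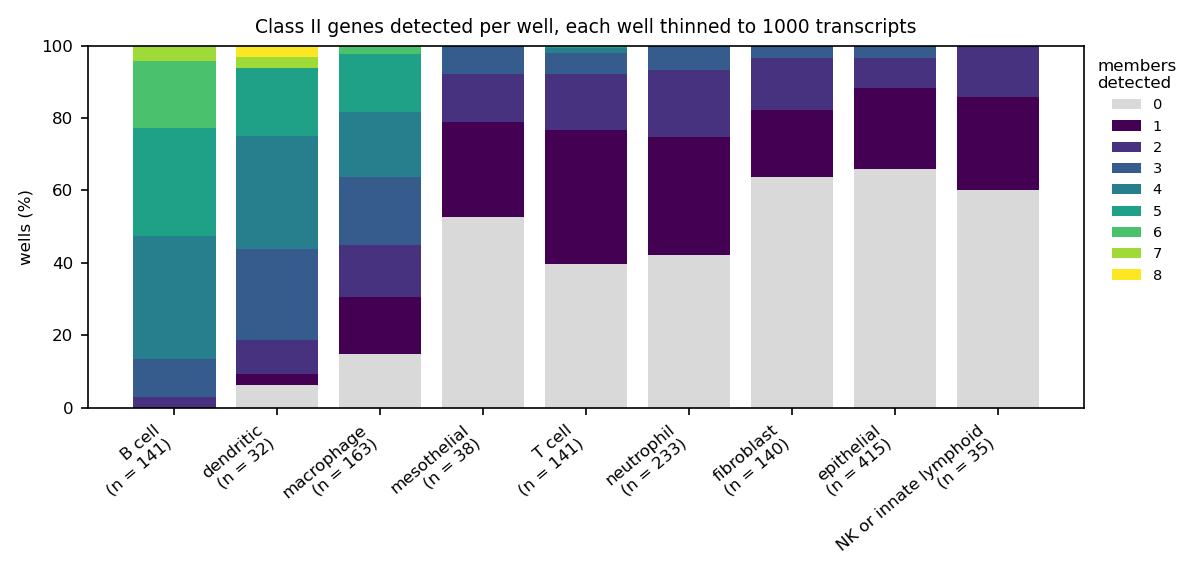
Bars give the percentage of wells of each class in which 0 to 8 class II genes were detected after every well was thinned to 1000 transcripts, with the number of wells under each class. B cell and dendritic wells mostly held 3 or more members, while 0 or 1 was the rule in epithelial and fibroblast wells.

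B cell wells were even in their class II content and macrophage wells were not. The lowest B cell well had 1324 CPM of Cd74, the median 13228 and the highest 29870. In macrophage wells Cd74 ranged from 0 to 40050 CPM with a median of 5022, and 18 of 171 wells held none. Cd74 in macrophage wells by plate was 16807, 4639 and 8270 CPM on FibCtrl replicates 1, 3 and 4 and 16605, 7154, 8338 and 7236 on FibΔZeb1 replicates 1 to 4. The plates of replicate 1 were highest in both genotypes and FibCtrl replicate 3 was lowest. H2-Aa had the same order, with 18608 and 14763 CPM on the plates of replicate 1 and 2973 on FibCtrl replicate 3.

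The low plate held most wells of a separate macrophage cluster with little class II. This cluster of 21 wells was led by Saa3, Alox15, Prg4, Serpinb2 and Arg1 and had 1430 CPM of Cd74, 1200 of H2-Aa and 20.4 of Ciita, against 12694, 10466 and 68.6 in the main cluster of 150 wells led by Lyz1, Mmp12 and C1qa. On FibCtrl replicate 3, the 15 wells of this cluster had 140 CPM of Cd74 and 102 of H2-Aa, while the 19 wells of the main cluster on the same plate had 8366 and 5352. The 2 wells of this cluster on FibCtrl replicate 4 were different, with 8205 CPM of Cd74, so low class II was not shared by all its wells. At least 3 members were found in 1 of its 20 wells deep enough to thin and in 62.2% of the 143 of the main cluster. Within macrophage wells, 29 wells with monocyte markers highest (Plac8 1827 CPM, Ccr2 1519) had 5567 CPM of Cd74 and 2558 of H2-Ab1, against 12720 and 6226 in 116 wells with macrophage markers highest. H2-DMa did not follow this, at 342 CPM in the former and 339 in the latter. These clusters and splits were chosen after the values were seen and were not tested.

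The genotypes were then compared within classes, which asks whether loss of Zeb1 in fibroblasts was accompanied by a change of class II genes. No member passed an adjusted p of 0.05 in any of the 6 classes that could be fitted (edgeR quasi-likelihood test, Benjamini-Hochberg over all genes). Over all genes, the same test called 0% of 1053 genes in B cell, 0% of 4455 in macrophage, 0% of 1123 in T cell, 0% of 10354 in epithelial, 0.0942% of 1062 in neutrophil and 0.0123% of 8150 in fibroblast wells. At an unadjusted p under 0.05 it found 9, 161, 33, 186, 41 and 423 genes in the same order of classes, and of the members only the 3 tested in neutrophil wells. Of the 4 lists of other genes (class II pathway, class I pathway, interferon gamma response and costimulation), no gene passed in any class, in either direction. In macrophage wells 11 class II pathway genes were tested, with a median log2 change of 0.13 beside -0.02 over all genes. In fibroblast wells 9 were tested, with 0.03 beside 0.00, and in epithelial wells 13, with 0.01 beside 0.01. The interferon gamma list had medians of -0.25 over 12 genes in epithelial and 0.15 over 13 genes in fibroblast wells. For the members the medians were -0.06 over 7 genes in macrophage wells, 1.15 over 3 in epithelial wells and 0.91 over 3 in fibroblast wells, and these 3 are the members that passed the filter on low counts.

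**Figure D3:**
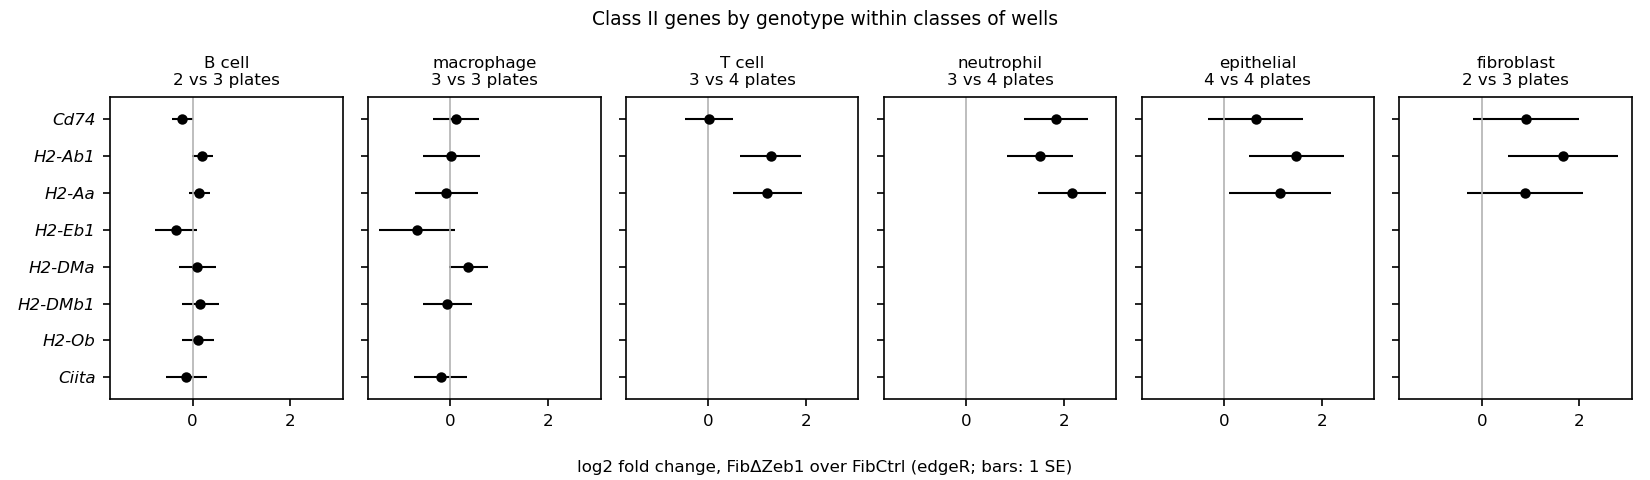
Points are edgeR log2 fold changes of FibΔZeb1 over FibCtrl for the class II genes that passed the filter on low counts in each class of wells, with bars of 1 standard error. Values lie between -0.34 and 0.20 in B cell wells, between -0.69 and 0.37 in macrophage wells and above 0 in T cell, neutrophil, epithelial and fibroblast wells, and none passed the adjusted threshold.

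In B cell wells all 8 members were tested and lay between -0.34 and 0.20 on the log2 scale. Cd74 in these wells was 12577 and 19620 CPM on FibCtrl replicates 1 and 3 and 16005, 11434 and 14289 on FibΔZeb1 replicates 1, 2 and 4. The genotypes overlapped, with a log2 change of -0.21 ± 0.22 (SE, adjusted p = 0.996, edgeR). The minimum of 10 wells per plate could not be fitted for B cells, so plates with 5 wells or more were used, and FibCtrl replicate 3 and FibΔZeb1 replicate 1 entered with 8 and 5 wells. Macrophage wells gave 7 tested members, with Cd74 at 0.11 ± 0.47, H2-Ab1 at 0.02 ± 0.58 and H2-Aa at -0.08 ± 0.64 (adjusted p = 1 each, edgeR). The other 4 were H2-Eb1 at -0.69 ± 0.78, Ciita at -0.20 ± 0.55, H2-DMb1 at -0.06 ± 0.50 and H2-DMa at 0.37 ± 0.40, with the same adjusted p. Their standard errors were wide, so a change of this size or somewhat larger was not detectable here.

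Outside the presenting classes, Cd74, H2-Ab1 and H2-Aa passed the filter on low counts and the other 5 members did not. H2-Aa in neutrophil wells was 102, 309 and 222 CPM on FibCtrl replicates 2 to 4 and 2428, 574, 303 and 659 on FibΔZeb1 replicates 1 to 4. The genotypes overlapped, since FibΔZeb1 replicate 3 lay below FibCtrl replicate 3. The edgeR log2 change was 2.17 ± 0.69 (SE) with an adjusted p of 0.961, and its unadjusted value was 0.00763. Without the filter on low counts the change was 2.07 with an adjusted p of 0.0441, and H2-Aa was then called. FibCtrl replicate 1 was not in this fit, as it had only 4 neutrophil wells, and those gave 10 H2-Aa transcripts or 1385 CPM, above 3 of the 4 FibΔZeb1 plates. Without FibΔZeb1 replicate 1 the change in neutrophil wells was 1.25, and under the replicate block, in which plates of the same number form a pair, it was 1.27. T cell wells gave 1.21 ± 0.71 for H2-Aa, 1.28 ± 0.62 for H2-Ab1 and 0.02 ± 0.49 for Cd74 (adjusted p = 0.970, 0.970 and 0.998, edgeR). The H2-Aa value in T cell wells was 0.21 without FibΔZeb1 replicate 1, 2.77 without FibCtrl replicate 1 and 1.79 without both.

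Epithelial wells carried low class II that differed widely between plates. H2-Aa was 568, 69.2, 48.9 and 60.3 CPM on FibCtrl replicates 1 to 4 and 1159, 320, 82.3 and 95.1 on FibΔZeb1 replicates 1 to 4. The plates of replicate 1 were highest within each genotype, and the genotypes overlapped. The log2 change was 1.15 ± 1.04 for H2-Aa, 1.48 ± 0.97 for H2-Ab1 and 0.65 ± 0.97 for Cd74 (adjusted p = 1 each, edgeR). Without FibΔZeb1 replicate 1 these changed sign, to -0.24, -0.33 and -0.63, a fit that keeps the high FibCtrl plate of the same number. Without FibCtrl replicate 1 they were 2.84, 2.56 and 2.34. Without both plates of replicate 1, a setting added after the data were seen, they were 1.47 ± 0.53, 0.77 ± 0.37 and 1.08 ± 0.47 (adjusted p = 1 each, edgeR). Among the 4 pairs of same-numbered plates, the FibΔZeb1 plate was higher in 4 for H2-Aa, in 4 for H2-Ab1 and in 3 for Cd74. The replicate block gave 1.14, 1.06 and 0.78 (adjusted p = 0.999 each, edgeR). Within the largest epithelial cluster on those plates, led by Rspo3, Twist1 and Rnase1, H2-Aa was 547 CPM in 50 wells of FibCtrl replicate 1 and 1180 in 40 wells of FibΔZeb1 replicate 1, but 115 in 19 wells of FibΔZeb1 replicate 3.

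Fibroblast wells resembled epithelial wells. H2-Ab1 was 103 and 32.1 CPM on FibCtrl replicates 1 and 4 and 568, 22.2 and 67.1 on FibΔZeb1 replicates 1, 3 and 4, and only FibΔZeb1 replicate 1 lay outside the FibCtrl range upward. The log2 change was 1.67 ± 1.13 (adjusted p = 1, edgeR). When replicate number entered the model as a block, the change was 1.89 ± 0.38 (adjusted p = 0.0119), and without the filter on low counts it was 1.64 (adjusted p = 8.77e-04), so the call of H2-Ab1 turned on the model. Both fits included FibΔZeb1 replicate 1, and without that plate the change was -0.70. H2-Aa was 360 and 68.5 CPM on the same FibCtrl plates, whereas the same FibΔZeb1 plates had 1082, 71.4 and 63.6, with a change of 0.88 ± 1.19 (adjusted p = 1, edgeR). Of the fibroblast clusters, the one led by Spp1, Tnc and Col8a1 had 602 CPM of H2-Aa and the one led by Dpt, Sfrp4 and Ptx3 had 191, but 22 of 24 fibroblast wells of FibΔZeb1 replicate 1 were in the former.

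The class II of these wells moved with the class II of the whole plate. H2-Aa from B cell, macrophage and dendritic wells came to 3766 CPM of all transcripts on FibΔZeb1 replicate 1, 1079 on FibCtrl replicate 1, 946 on FibΔZeb1 replicate 2 and 169 on FibCtrl replicate 2, with the other 4 plates between 507 and 704. In wells under 500 transcripts, which include the empty control wells, H2-Aa reached 6881 CPM on FibΔZeb1 replicate 1 and 2948 on FibCtrl replicate 1, and 275 to 2406 elsewhere. T cell wells had 1791 and 709 CPM on these plates of replicate 1 and 90.3 to 744 elsewhere. H2-Aa in epithelial wells lay below the T cell level on 7 of 8 plates and below that of wells under 500 transcripts on 8 of 8. H2-Ab1 in fibroblast wells was below the T cell level on 7 of 7 plates. For H2-Aa in fibroblast wells these counts were 5 of 7 and 7 of 7, and for neutrophil wells 2 of 7 and 7 of 7. Depth was not equal in these comparisons, with medians of 24574 transcripts in epithelial, 18659 in fibroblast and 3282 in T cell wells. A set number of stray transcripts gives a lower CPM in a deeper well, so this order cannot measure background. On FibΔZeb1 replicate 1, 44 epithelial wells held 1768 H2-Aa transcripts, 18 T cell wells 146 and 118 wells under 500 transcripts 126. Macrophage markers also moved. The summed CPM of 11 macrophage markers in epithelial wells was 686 on FibΔZeb1 replicate 1 and 65.7 to 153 on the other plates. None of the 11 was at 0 on that plate, and Apoe alone gave 436 CPM of the sum. B cell markers did not follow, as the sum of 8 in epithelial wells was 32.8 there and 61.8 to 145 elsewhere. For 14 dendritic markers the sum was 149 there and 79.8 to 119 elsewhere. FibCtrl replicate 1 was at 117 in the macrophage sum, within the range of the other plates. In T cell wells the macrophage sum was 857 on FibΔZeb1 replicate 1, with 527 of it from Apoe, and 0 to 335 elsewhere. In fibroblast wells it was 643 on that plate, with 380 of it from Apoe. It was 1018 on FibΔZeb1 replicate 2 and 170 to 339 elsewhere. Of the 1018, Apoe gave 945, and 9 of the 11 markers were at 0 there.

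**Figure D4:**
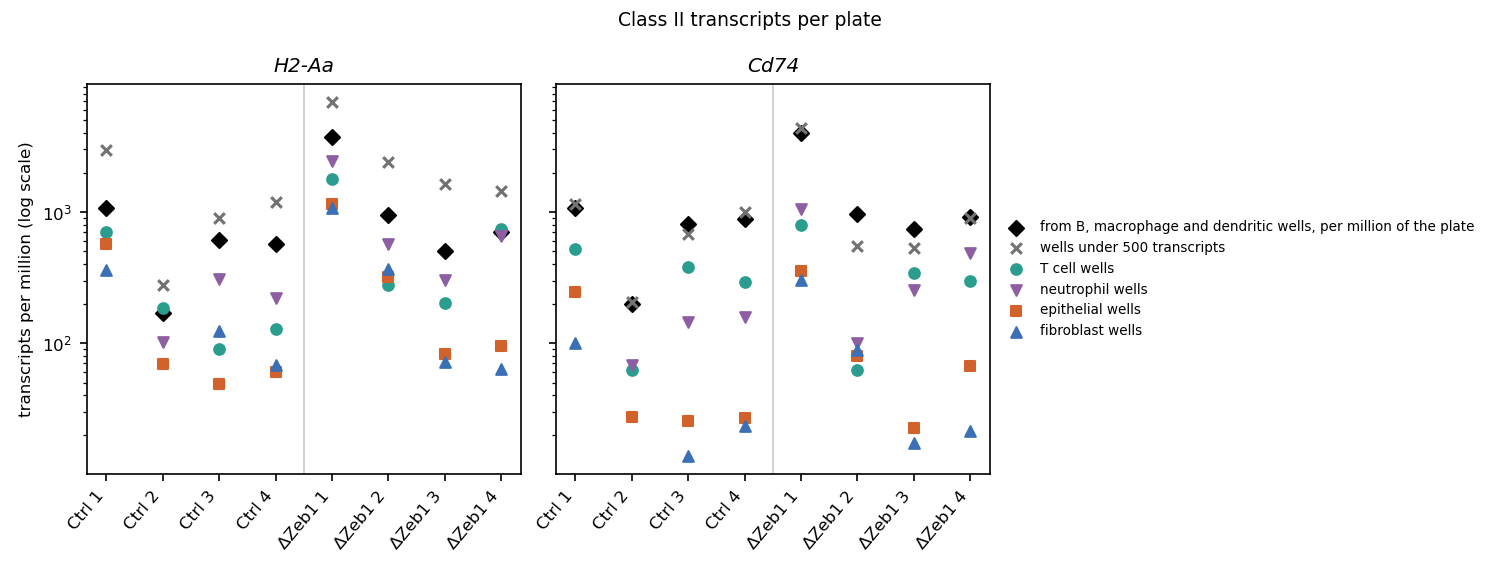
For H2-Aa and Cd74, levels in CPM on a log axis are plotted for the 8 plates. Diamonds give transcripts from B cell, macrophage and dendritic wells scaled to the whole plate, crosses the level in wells under 500 transcripts, and other symbols the level in 4 classes of wells. FibΔZeb1 replicate 1 is the highest plate for each symbol shown in both panels.

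Across plates, the log2 level of H2-Aa in epithelial wells followed that plate total with Pearson's r = 0.82 (exact permutation p = 0.00275, adjusted 0.00734) and Spearman's rho = 0.79 (exact permutation p = 0.0279, adjusted 0.0559) over 8 plates. Without the 2 plates farthest from the median total, r was 0.93. For Cd74 in epithelial wells r was 0.73 and rho 0.86 (exact permutation p = 0.00556 and 0.0107, adjusted 0.00889 and 0.0286), and r without 2 plates was 0.92. In all, 8 such relations were computed, for H2-Aa and Cd74 in 4 classes, and Pearson's r lay between 0.72 and 0.97. For Cd74 in T cell and neutrophil wells r fell to -0.12 and -0.14 without the 2 farthest plates, so these rest on those plates. A flow cell held 4 plates, too few for a correlation within it. On the flow cell of replicates 1 and 2, plate totals of 169, 946, 1079 and 3766 CPM went with epithelial levels of 69.2, 320, 568 and 1159, in the same order. On the flow cell of replicates 3 and 4, totals of 507, 569, 610 and 704 went with 82.3, 60.3, 48.9 and 95.1, which are not in one order. The relation of H2-Aa over 8 plates therefore rests on the former flow cell, and the permutations took no account of flow cell or of same-numbered plates. The part of plate-wide RNA and of macrophage transcripts in the epithelial, fibroblast, neutrophil and T cell levels was not tested.

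The ratio of H2-Aa to Cd74 in these low levels was also set beside that of presenting cells. H2-Aa per Cd74 transcript was 0.876 in B cell, 1.05 in dendritic and 0.825 in macrophage wells. It was 2.74 in epithelial, 3.56 in fibroblast and 3.83 in pericyte or smooth muscle wells and 1.85 in wells under 500 transcripts. By plate the ratio ran from 0.534 to 1.11 in macrophage wells and from 1.42 to 4.02 in epithelial wells, so the 2 ranges did not overlap over 8 plates each. In wells under 500 transcripts it ran from 1.21 to 4.33 over 7 plates, a range that covers that of epithelial wells. T cell wells lay on both sides, from 0.238 to 2.25.

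Mesothelial wells held a minority with more Cd74. Of 38 such wells, 8 (21.1%) had at least 5 Cd74 transcripts and at least 500 CPM. The same held for 4 of 144 fibroblast wells (2.78%), 14 of 420 epithelial wells (3.33%) and 12 of 143 T cell wells (8.39%). The need for 5 transcripts is stricter in shallow wells, and median depths were 25850 transcripts in mesothelial and 3282 in T cell wells. Wells with at least 2 transcripts of Ptprc or of Epcam had been left out of the fibroblast wells only. In mesothelial wells Epcam was found in 55.3% and Ptprc in 21.1%. These shares are therefore not like for like. After thinning to equal depth, at least 3 members were found in 3 of 38 mesothelial wells (7.89%, 1.66 to 21.4), beside 7.80% in T cell wells. Pooled Cd74 was 261 CPM in mesothelial and 438 in T cell wells. In all 8 mesothelial wells chosen on Cd74, Cd74 exceeded H2-Aa. In all 4 of the fibroblast wells so chosen, which came from FibΔZeb1 replicate 1 alone, H2-Aa exceeded Cd74. Cd74 also exceeded H2-Aa in 7 of the 12 T cell, 4 of 7 neutrophil and 5 of the 14 epithelial wells so chosen. A choice on Cd74 favours wells in which Cd74 exceeds H2-Aa, so these counts are a description with no test. The 8 wells came from FibCtrl replicates 3 and 4 and FibΔZeb1 replicate 4, with 4 wells per genotype, and 6 of the 8 had no Ptprc (CD45) transcript. The 2 mesothelial wells of FibΔZeb1 replicate 1 were unlike these, with 129 H2-Aa and 29 Cd74 transcripts together, a ratio of 4.45.

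Together the 8 wells held 227 Cd74, 157 H2-Ab1, 95 H2-Aa and 13 H2-DMb1 transcripts among 148343, so Cd74 stood at 1532 CPM, against 85.6 in the other 30 mesothelial wells, a difference that the choice of wells fixed. The well with the most class II, on FibΔZeb1 replicate 4, had 72 Cd74, 42 H2-Ab1 and 17 H2-Aa transcripts of 13236. No Ciita or H2-Ob transcript was found in the 8 wells, which allows up to 20.2 CPM of each. Mesothelial markers were present in the 8 wells, with Wt1, a transcription factor of mesothelium, at 398 CPM against 403 in the other wells. Upk3b (202 against 77.2), Nkain4 (371 against 130), Gpm6a (142 against 103) and Rspo1 (155 against 123) were higher. Msln (169 against 300), Upk1b (196 against 276) and Lrrn4 (108 against 119) were lower, and Msln was found in 4 of the 8 wells. The macrophage marker C1qa had 4 transcripts and the B cell marker Cd79a none. Mesothelial wells as a class also carried fibroblast markers. Their 13 fibroblast markers summed to 48430 CPM, beside 1557 for the 8 mesothelial markers, and all 13 were found in 10% or more of wells. The fibroblast sum was 78135 in fibroblast, 31504 in pericyte or smooth muscle, 2014 in macrophage and 1509 in epithelial wells. It was not taken for the wells with high Cd74 alone. The 500 CPM limit was set after the values were seen, and no genotype test was possible because only 2 plates held 5 or more mesothelial wells.

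**Figure D5:**
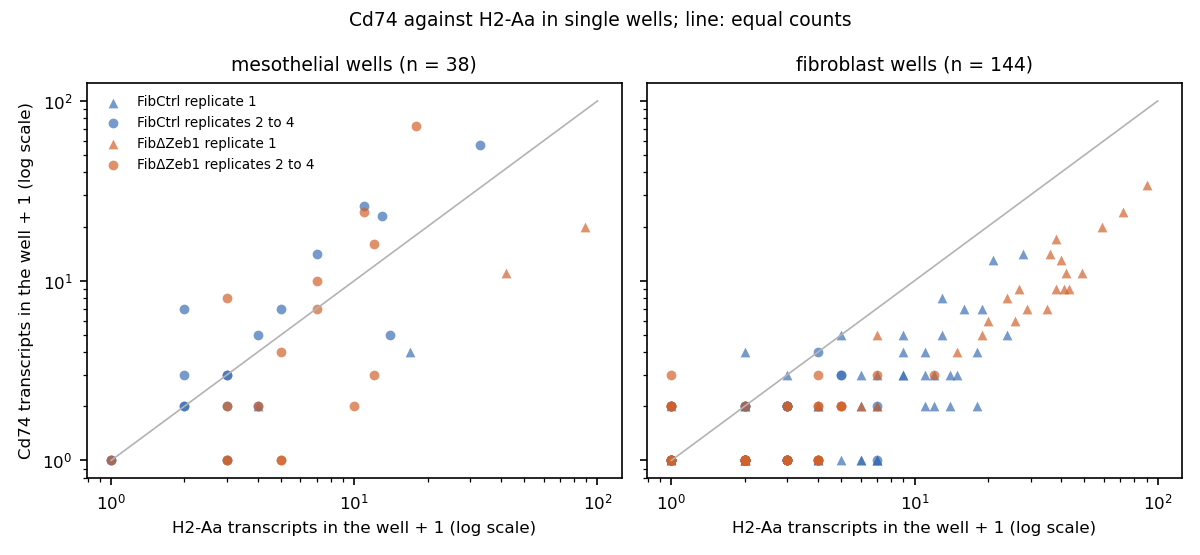
Each point is 1 well, with H2-Aa transcripts plus 1 on the x axis and Cd74 transcripts plus 1 on the y axis, both on log scales, for 38 mesothelial and 144 fibroblast wells. Triangles are the plates of replicate 1, circles the other plates, and the line marks equal counts. Mesothelial wells with much Cd74 lie above the line apart from 2 of FibΔZeb1 replicate 1, whereas fibroblast wells with many transcripts lie below it and come from the plates of replicate 1.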

How the data were processed

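The deposited files hold estimated counts per gene and well, 1 table per mouse and plate. Per the labels, reads were mapped with BWA to GRCm38 (Cell Ranger 2.1.1 is also named), and the authors' provider corrected the unique molecular identifiers for collisions, so that 86.3% of values above 0 were whole. Strand use in counting was not given in the sources used here. The values are not scaled to depth.

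The 89 spike-in and 37 mitochondrial rows were left out. Wells were kept with at least 500 transcripts and a mitochondrial share up to 3 median absolute deviations over the plate median. After scaling each well to 10000, 2000 variable genes without class II genes, 20 principal components and 15 neighbours gave Leiden clusters at resolution 1 (Python 3.11.15, scikit-learn 1.9.0, leidenalg 0.10.2). Clusters were named from marker lists with no class II gene. The naming score of 0.5 was set with the data in view. No doublet caller was run, since 1 cell was sorted per well. Sums per class and plate were rounded and tested with edgeR 4.0.16 in R 4.3.3 (TMM, expression filter, genotype as the only term, plates with at least 10 wells). DESeq2 1.42.0, RLE factors, no filter, flow cell, a replicate block, other limits and leaving out each plate were alternatives. The scripts were tested on simulated data.

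Same-numbered plates of the genotypes deviated together, with correlations of 0.53, 0.26, 0.14 and 0.11 over 10354 genes in epithelial wells, and the numbers come from the sample titles. They were therefore treated as paired in the alternative, although FibCtrl replicate 4 correlated best with FibΔZeb1 replicate 3 and FibΔZeb1 replicate 3 with FibCtrl replicate 4, while the other 6 plates matched their own number best. All 8 members were named, as were the leading genes of 4 lists by class and the 10 genes of most like pattern. Members and lists were chosen with earlier results of these data known. Plates are separate mice. The fit of dendritic and monocyte wells was not possible. The analysis plan listed the promoters of H2-Aa, H2-Ab1 and H2-Eb1. No sequence was available for H2-Ab1, and H2-Ob and H2-DMb1 were shown in its place.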

Additional observations from a re-analysis of the deposited data

Results flagged for a closer look

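Of 54 groups of 4 plates examined, 1 gene in 1 class and genotype each, 18 had a plate standing apart by Dixon's ratio at the 95% level. Chance flags about 1 in 20 independent groups, but these groups share plates, so that rate does not apply to them directly. In 6 of the 18 the other 3 plates were all at 0, which fixes the ratio at its highest value whatever the count, and 12 remain. All 18 were plates of replicate 1, which the labels give as separate mice of both genotypes.

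On FibΔZeb1 replicate 1, macrophage wells had 16605 CPM of Cd74, 8591 of H2-Ab1 and 14763 of H2-Aa, each above the other plates of the genotype, which reached 8338, 3571 and 6427. H2-Aa in neutrophil wells was 2428 CPM, H2-Ab1 was 613 in epithelial wells and 568 in fibroblast wells, with the other plates at 659, 83.4 and 67.1 or less. Single transcripts of H2-Ob and Ciita in T cell wells stood apart at 12.2 CPM each, with 0 elsewhere in the genotype.

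On FibCtrl replicate 1, epithelial wells stood apart for Cd74 (246 CPM, others 27.1 or less), H2-Ab1 (176), H2-Aa (568, others 69.2 or less), H2-Eb1 (34.2), H2-DMb1 (32.9) and H2-Ob (6.84, 20 transcripts, with 0 on the other plates). T cell wells stood apart for H2-Aa (709), H2-Eb1 (22.5), H2-DMb1 (7.49) and Ciita (7.49), the last from 2 transcripts. The cause of the high class II on these plates was not tested.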

How the results depend on the processing

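Members and classes were limited by depth and by the number of plates, since 5 of 8 members had too few transcripts to be tested outside presenting cells. The number of members called was 0 in each fitted class and became 1 in 3 settings: without the filter on low counts in neutrophil wells (H2-Aa) and in fibroblast wells (H2-Ab1), and under the replicate block in fibroblast wells (H2-Ab1, 1.89). The replicate block changed no other call. It could not be fitted in B cell wells, nor the fit without wells of mixed markers in T cell wells, and monocyte and dendritic wells gave no fit. The cause of these shifts was not tested. No log2 change past the threshold reversed, since none was called. The sign of uncalled changes turned as follows. In B cell wells without mixed wells, Ciita was 0.18, H2-Aa -0.11, H2-DMa -0.14 and H2-Ob -0.10. In macrophage wells, plates with 5 wells gave Cd74 -0.03 and H2-Ab1 -0.14, the flow cell term gave H2-Aa 0.15 and H2-DMb1 0.13, no filter gave 0.02 and 0.01, the replicate block gave 0.17 and 0.14, and leaving out mixed wells gave 1.39 and 1.01, with H2-Eb1 at 1.42. Cd74 in T cell wells was -0.08 with the flow cell term, -0.15 with no filter, -0.03 with classes from marker sums, and, without both plates numbered 1 (chosen after seeing the data), -0.41, or -0.02 with the replicate block as well. Leaving out each plate in turn gave, in B cell wells, ranges of -0.53 to 0.07 for Cd74, -0.45 to 0.10 for Ciita, -0.10 to 0.51 for H2-DMb1 and -0.60 to 0.04 for H2-Eb1. In macrophage wells it gave -0.37 to 0.76 for Cd74, -0.51 to 0.47 for Ciita, -0.78 to 1.12 for H2-Aa, -0.60 to 1.02 for H2-Ab1, -0.01 to 0.69 for H2-DMa, -0.42 to 0.85 for H2-DMb1 and -1.26 to 1.08 for H2-Eb1. Cd74 in T cell wells ran from -0.70 to 0.31. In epithelial wells the ranges were -0.63 to 2.34 for Cd74, -0.24 to 2.84 for H2-Aa and -0.33 to 2.56 for H2-Ab1, and in fibroblast wells -1.73 to 2.36, -1.68 to 2.56 and -0.70 to 2.79. The share of wells with 3 or more members was 91% in B cell wells thinned to 500 transcripts. Without thinning it was 80.1% in macrophage, 96.9% in dendritic, 39.2% in T cell, 55.7% in epithelial and 50.7% in fibroblast wells. A minimum of 4 members gave 86.5% in B cell and 56.2% in dendritic wells, and a minimum of 2 gave 90.6% in dendritic, 25.3% in neutrophil, 23.4% in T cell, 11.8% in epithelial and 17.9% in fibroblast wells. Limiting macrophage wells to the larger cluster, an alternative chosen after seeing the data, gave 0 members called.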
